A study of Homo sapiens with 6 samples.

Results

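Expression of 10 genes that mark the epithelial-mesenchymal transition (EMT) was followed in A549 cells with and without overexpression of TIPARP. These were 10 of the 53826 entries in each deposited table, found by their gene symbols: CDH1 (Entrez 999), EPCAM (4072), ESRP1 (54845), CDH2 (1000), VIM (7431), FN1 (2335), ZEB1 (6935), ZEB2 (9839), SNAI1 (6615) and SNAI2 (6591). In EMT, epithelial cells lose the junctions that hold them in a sheet and take on the shape and motility of mesenchymal cells. SNAIL and ZEB factors bind E-box elements and repress CDH1 and other epithelial genes, while vimentin and fibronectin accumulate. Carcinoma cell lines often hold transcripts of both kinds at once.

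A549 is a human lung adenocarcinoma line. RNA-seq was performed on A549-GFP cells, which stably overexpress GFP and served as the control, and on A549-TIPARP cells, which stably overexpress TIPARP, a mono-ADP-ribosyltransferase induced by the aryl hydrocarbon receptor. Both lines were made with retroviral pMXs vectors, so the control also carried a virus, and whether each line was a pool or a clone is not given in the sources used here. Each line had 3 libraries from numbered experiments 1 to 3 (n = 3 per line throughout). The labels do not say whether these came from separate cultures, so the p-values below measure only the spread between these libraries. The comparison asks whether the 2 lines differed in the level of EMT transcripts.

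Expression was given as TPM, the length-corrected share of transcripts in a library, on a log2 scale, with no read counts, so the sequencing depth is unknown. No listed log2 value lay below 0, which means that a TPM of 1 was the lowest level that could be read. A gene at that value is called listed at 0 here. EIF4A1 and EIF4E, translation factors that every cell uses, were also listed at 0 in all 6 libraries, so a 0 can be a failed estimate. TIPARP itself stood at 6.79, 11.4 and 3.68 TPM in A549-GFP and at 131, 90.5 and 123 TPM in A549-TIPARP, a 17.2-fold difference (adjusted p = 0.0125, limma with Benjamini-Hochberg adjustment over 13181 genes), as the labels say. This adjusted p ran from 8.45e-07 to 0.513 over 14 alternatives, and it was above 0.05 in 6 of them, namely without A549-GFP replicate 1 or 3, without A549-TIPARP replicate 1 or 3, with no filter on low values and with a replicate block. A549-GFP replicate 2 stood apart from the other libraries: it was the highest or the lowest of the 6 in 65.7% of the genes tested. Over these genes its deviations from its line mean correlated at 0.62 with those of A549-TIPARP replicate 3, the highest correlation between libraries of the 2 lines. The cause was not tested. The epithelial marker list (KRT8, KRT18, KRT7, KRT19, EPCAM and CDH1) was above 0 for 6 of 6 genes in every library, summing to 10774 to 23392 TPM in A549-GFP and 18544 to 22190 TPM in A549-TIPARP. Of 8 endothelial markers 7 were listed at 0 in every library, PECAM1 and CDH5 among them, and the sum was 2.43 to 8.09 TPM in A549-GFP and 4.57 to 8.10 TPM in A549-TIPARP. Of 8 mesenchymal stem cell or fibroblast markers 6 were listed at 0 in every library, THY1 and PDGFRB among them, and the sum was 1.09 to 1.44 TPM in A549-GFP and 1.64 to 2.56 TPM in A549-TIPARP.

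A549 cells expressed epithelial and mesenchymal markers together. Vimentin was the highest of the 10 in both lines, followed by EPCAM, CDH1 and FN1, while CDH2, ZEB2 and SNAI2 were listed at 0 in all 6 libraries. VIM was the only member whose libraries did not overlap between the lines, which was so for 8.91% of all genes tested, with a geometric mean of 671 TPM in A549-TIPARP and 356 TPM in A549-GFP. No member had an adjusted p under 0.05 in limma, as 0.0152% of all genes did, and VIM alone had an unadjusted p under 0.05. The geometric mean of CDH1 was 88.3 TPM in A549-TIPARP and 86.7 TPM in A549-GFP.

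**Figure D1:**
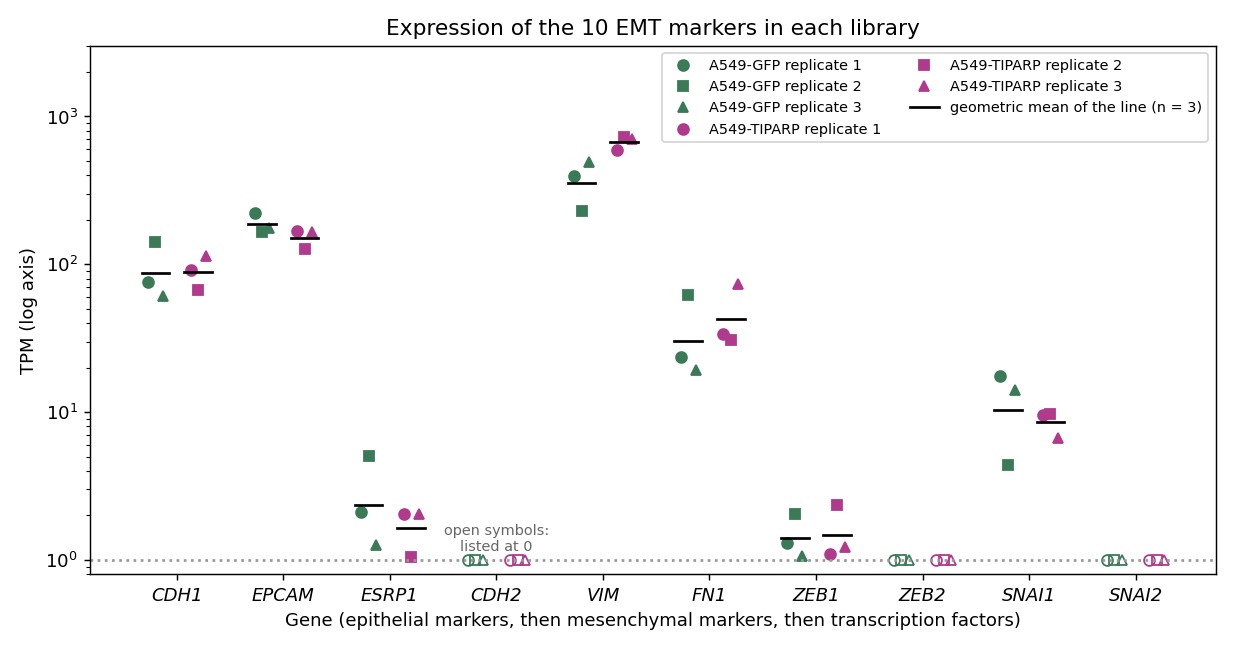
Level of each of the 10 EMT markers in TPM (log axis) in the 6 libraries, with green for A549-GFP and purple for A549-TIPARP, a symbol shape for each replicate and a bar for the geometric mean of 3 libraries. VIM is the only one of them whose 3 A549-TIPARP libraries (592 to 725 TPM) all lie above the A549-GFP libraries (230 to 496 TPM), and the open symbols of CDH2, ZEB2 and SNAI2 mark genes listed at 0.

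On the TPM scale, which corrects for transcript length, the order by geometric mean was VIM, EPCAM, CDH1, FN1, SNAI1, ESRP1 and ZEB1 in both lines. In both lines the ranges of VIM and EPCAM, of EPCAM and CDH1, and of FN1 and SNAI1 did not overlap. The ranges of CDH1 and FN1 overlapped in both lines, although CDH1 was above FN1 in 3 of 3 libraries of each. SNAI1 and ESRP1 overlapped in A549-GFP and not in A549-TIPARP, and the ranges of ESRP1 and ZEB1 overlapped in both lines, with ESRP1 above ZEB1 in 3 of 3 A549-GFP and 2 of 3 A549-TIPARP libraries.

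The upstream sequence of the member whose lines did not overlap and of the ZEB factor above 0 are shown because ZEB and SNAIL factors act through the E-box CACCTG. The sequences are the 250 bases before the gene start in RefSeq (GRCh38.p14), both on the plus strand, at chr10:17227991-17228240 for VIM and chr10:31318167-31318416 for ZEB1. Capitals mark CACCTG on either strand, which reads CAGGTG on the minus strand.
VIM: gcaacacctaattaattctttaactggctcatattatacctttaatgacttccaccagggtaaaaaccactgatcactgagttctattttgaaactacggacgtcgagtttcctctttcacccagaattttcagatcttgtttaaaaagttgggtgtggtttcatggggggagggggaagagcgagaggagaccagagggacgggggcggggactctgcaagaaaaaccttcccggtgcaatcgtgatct
ZEB1: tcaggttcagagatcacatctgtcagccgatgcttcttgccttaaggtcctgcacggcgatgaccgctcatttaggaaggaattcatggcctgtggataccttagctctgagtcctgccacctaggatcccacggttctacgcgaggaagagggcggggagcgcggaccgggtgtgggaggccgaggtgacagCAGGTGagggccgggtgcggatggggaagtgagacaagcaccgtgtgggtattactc
VIM held no match in this window. ZEB1 held 1, which began 57 bases before the start, and the motif stood before 2 of its 7 listed starts. FN1, CDH2 and ZEB2 held none, and the other 5 members had no entry in the promoter table. Of all 35116 promoter windows of this length, 17.5% held the motif.

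The epithelial members came first. CDH1 (chr16:68737292-68835537, 16 exons) encodes E-cadherin, the adhesion molecule of epithelial junctions whose loss is a hallmark of EMT. It stood at 75.4, 142 and 61.0 TPM in A549-GFP replicates 1 to 3 and at 90.9, 66.5 and 114 TPM in A549-TIPARP. The highest and the lowest library were both A549-GFP, so the lines overlapped fully. On log2 TPM the levels were 6.44 ± 0.63 (SD) in A549-GFP and 6.46 ± 0.39 in A549-TIPARP. The log2 fold change, here and below A549-TIPARP over A549-GFP on log2(TPM + 1), was 0.03 with a standard error of 0.33 (adjusted p = 0.998, limma). Its 95% interval ran from -0.72 to 0.77, or from 0.607-fold to 1.71-fold.

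EPCAM (chr2:47345158-47387601, 9 exons), an epithelial surface adhesion molecule, stood at 221, 166 and 175 TPM in A549-GFP and at 167, 126 and 165 TPM in A549-TIPARP. The lines overlapped only because A549-TIPARP replicate 1 was slightly above A549-GFP replicate 2. Its log2 fold change was -0.29 with a 95% interval of -0.72 to 0.14 (adjusted p = 0.994, limma). ESRP1, which directs epithelial splicing of FGFR2, CD44 and other transcripts, was near the lowest level that could be read, at 2.10, 5.02 and 1.26 TPM in A549-GFP and 2.05, 1.05 and 2.04 TPM in A549-TIPARP. A549-GFP replicate 2 stood well above the rest, and without it the log2 fold change moved from -0.38 (95% interval -1.22 to 0.45) to 0.01.

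With all 6 libraries VIM had the largest difference of the mesenchymal members, an order that turned without A549-GFP replicate 2 (log2 fold change 0.60 for VIM and 0.97 for FN1). VIM (chr10:17228241-17237593, 10 exons) encodes vimentin, the intermediate filament protein of mesenchymal cells. It stood at 396, 230 and 496 TPM in A549-GFP and at 592, 725 and 704 TPM in A549-TIPARP. The 3 values of A549-TIPARP all exceeded those of A549-GFP, and A549-GFP replicate 2 was the lowest of the 6. On log2 TPM the levels were 8.48 ± 0.57 in A549-GFP and 9.39 ± 0.16 in A549-TIPARP, a 1.88-fold difference between geometric means. The log2 fold change was 0.91 with a standard error of 0.27 and a 95% interval of 0.30 to 1.53. It had an unadjusted p of 0.00870 in limma, rank 131 of 13181 genes, and did not pass the adjustment (adjusted p = 0.856, at the lowest 0.118 over 14 alternatives). Leaving out A549-GFP replicate 2 lowered the log2 fold change to 0.60, the least of any single library, and leaving out A549-TIPARP replicate 3 as well gave 0.56. Of the 8 fibroblast and stem cell markers COL1A1 alone was above 0 in A549-TIPARP, at 1.84, 1.64 and 2.56 TPM. In A549-GFP it stood at 1.44 and 1.31 TPM in replicates 1 and 3 and was listed at 0 in replicate 2. THY1, PDGFRB and 4 others were at 0 in every library, and the part of these markers in the VIM difference was not tested. In bulk RNA, more cells of a kind and more RNA per cell cannot be told apart. VIM-AS1, which is transcribed against VIM, stood at 2.91, 2.85 and 2.26 TPM in A549-GFP and 1.65, 2.58 and 2.02 TPM in A549-TIPARP.

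FN1 (chr2:215360440-215436073, 46 exons) encodes fibronectin, a matrix glycoprotein that mesenchymal cells secrete. It stood at 23.5, 61.9 and 19.2 TPM in A549-GFP and at 33.8, 30.8 and 73.2 TPM in A549-TIPARP. A549-GFP replicate 2 and A549-TIPARP replicate 3 were far above the other libraries of their lines, and the lines overlapped. The log2 fold change was 0.47 with a standard error of 0.47 and a 95% interval of -0.60 to 1.53 (adjusted p = 0.994, limma). It was 0.97 without A549-GFP replicate 2, 0.08 without A549-TIPARP replicate 3 and 0.58 without both. CDH2, which encodes N-cadherin, the cadherin that replaces E-cadherin in EMT, was listed at 0 in all 6 libraries.

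Of the repressors, SNAI1 and ZEB1 were above 0. SNAI1 (chr20:49982980-49988886, 3 exons) encodes SNAIL, a zinc finger repressor of CDH1, and stood at 17.5, 4.39 and 14.1 TPM in A549-GFP and at 9.52, 9.76 and 6.73 TPM in A549-TIPARP. The A549-TIPARP libraries lay between the lowest and the second highest A549-GFP library. The log2 fold change was -0.26 with a 95% interval of -1.25 to 0.73 (adjusted p = 0.994, limma), and it ranged from -0.80 without A549-GFP replicate 2 to 0.08 without A549-GFP replicate 1. ZEB1 (chr10:31318495-31529814, 9 exons), a repressor with zinc fingers at both ends, stood at 1.31, 2.05 and 1.06 TPM in A549-GFP and at 1.10, 2.37 and 1.23 TPM in A549-TIPARP. Replicate 2 was the highest in both lines, and the log2 fold change was 0.04 with a 95% interval of -0.57 to 0.65. ZEB1-AS1, transcribed from the opposite strand next to ZEB1, was listed at 2.27 to 6.20 TPM in A549-GFP and at 1.87 to 3.33 TPM in A549-TIPARP, above ZEB1 in each library. ZEB2 and SNAI2, the paralogs of these repressors, were listed at 0 throughout.

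Over the members as a set, 7 of 10 had a TPM above 2 in at least 1 library and were tested, and the remaining 3 were those listed at 0. None of the 7 had an adjusted p under 0.05 in limma (0.856 to 0.998), against 2 genes or 0.0152% of all tested. At an unadjusted p under 0.05, 1 of 7 passed (VIM), against 3.85% of all genes, and 2.97% of all genes did so with higher and 0.88% with lower values in A549-TIPARP. VIM, 1 of 7, did not overlap between the lines, against 8.91% of all genes, or 5.36% higher and 3.54% lower in A549-TIPARP. None of the 7 passed a 2-fold difference of mean log2 TPM, against 1.96%. The median log2 fold change of the 7 was 0.03, with 4 positive and 3 negative, beside a median of -0.06 over all genes tested. A549-GFP replicate 2 was the highest library for CDH1 and ESRP1 and the lowest for VIM and SNAI1, which makes it extreme in 4 of 7 members. A549-TIPARP replicate 2, which was extreme in 13.5% of all genes tested against 65.7% for A549-GFP replicate 2, was extreme in 4 of 7, highest for VIM and ZEB1 and lowest for EPCAM and ESRP1. The SD on log2 TPM was larger in A549-GFP than in A549-TIPARP for 5 of 7, and for 79.6% of all genes tested.

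**Figure D2:**
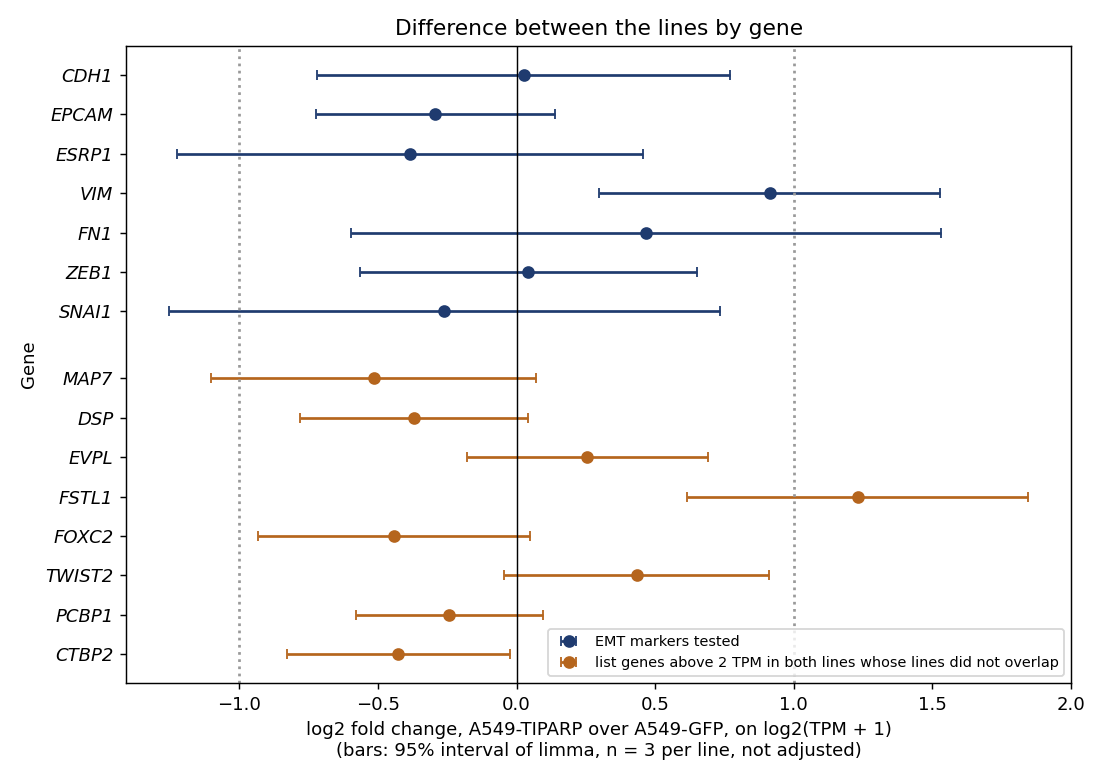
log2 fold change of A549-TIPARP over A549-GFP on log2(TPM + 1), with 95% limma intervals (n = 3 per line, not adjusted), for the 7 EMT markers tested (blue) and 8 of 65 genes of related lists, above 2 TPM in a library of both lines, that were plotted because their lines did not overlap (orange), which was so for 8.08% of all such genes. Of the EMT markers the interval of VIM (0.30 to 1.53) alone lies away from 0, and the dotted lines mark a 2-fold difference.

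Ratios of 2 genes within a library do not depend on how libraries were scaled. The CDH1 to VIM ratio, as log2, was -2.39, -0.70 and -3.02 in A549-GFP and -2.70, -3.45 and -2.63 in A549-TIPARP. A549-GFP replicates 1 and 2 lay above all 3 A549-TIPARP libraries, replicate 2 by far, while A549-GFP replicate 3 fell among them. The EPCAM to VIM ratio was -0.84, -0.47 and -1.50 in A549-GFP and -1.82, -2.52 and -2.10 in A549-TIPARP. All 3 A549-TIPARP libraries were below all 3 A549-GFP libraries, with means of -2.15 ± 0.35 (SD) and -0.94 ± 0.52. VIM against KRT18, the keratin of simple epithelia, was -4.68, -4.18 and -4.58 in A549-GFP and -4.14, -3.85 and -3.72 in A549-TIPARP, again with no overlap, although A549-GFP replicate 2 and A549-TIPARP replicate 1 were close. The CDH1 to FN1 ratio was 1.68, 1.19 and 1.66 in A549-GFP and 1.43, 1.11 and 0.64 in A549-TIPARP, and the lines overlapped. Both ratios whose lines did not overlap hold VIM, so they are not separate from its own difference.

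**Figure D3:**
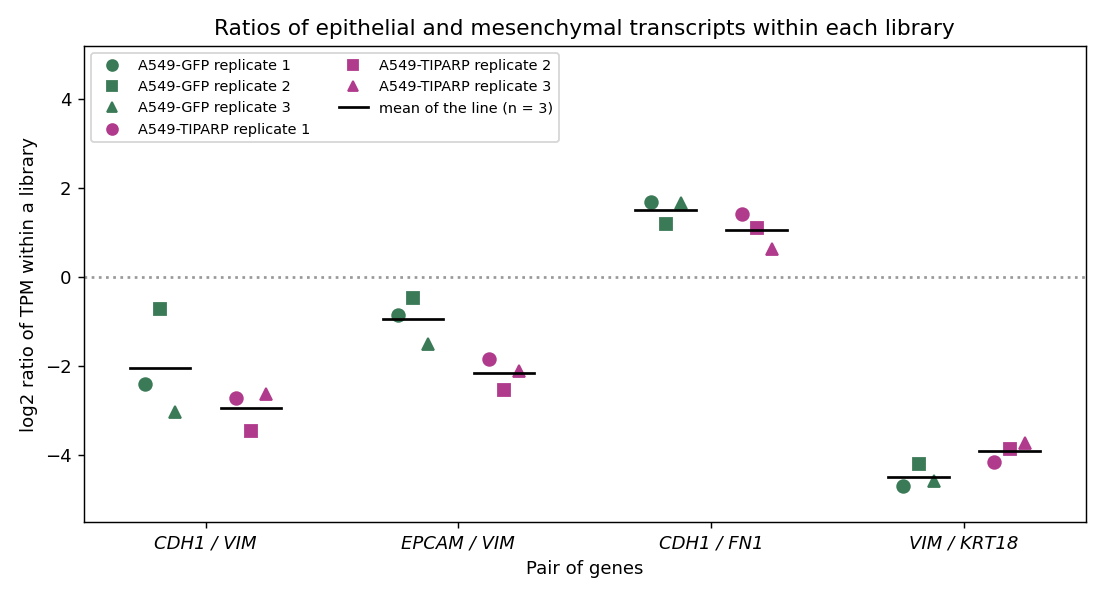
log2 ratio of TPM within each library for 4 pairs of genes, with green for A549-GFP, purple for A549-TIPARP, a symbol shape for each replicate and a bar for the mean of 3 libraries. The lines are separate for EPCAM / VIM (means -0.94 and -2.15) and VIM / KRT18 (means -4.48 and -3.90) and overlap for CDH1 / VIM and CDH1 / FN1.

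Genes of the same pathway were read from companion lists. The count of genes with an adjusted p under 0.05 in limma was 0 in each list. Of the 69 distinct genes tested, 65 had a TPM above 2 in at least 1 library of both lines, and the other 4 passed that filter through 1 line alone. Among the 65, FSTL1 and CTBP2 had an unadjusted p under 0.05 (3.08%, beside 3.27% of the 12262 genes that passed in both lines), and the lines did not overlap for 8 (12.3%, beside 8.08%). TWIST1, HMGA2 and ARVCF also had lines that did not overlap, but they passed the filter only through A549-TIPARP, where they were higher, so their separation was partly set by the filter and no test is given for them. Over all genes tested, 39.6% had a positive and 60.4% a negative log2 fold change, beside which the counts of signs below stand. Of 20 other mesenchymal genes 9 were tested, 7 of them with a positive log2 fold change, and the list median was 0.26. With 1 library left out that median ran from 0.069 (A549-GFP replicate 3 omitted) to 0.46 (A549-GFP replicate 2 omitted). FSTL1, a secreted glycoprotein, had the largest difference of this list and stood at 5.47, 2.37 and 4.01 TPM in A549-GFP and 10.1, 10.3 and 10.2 TPM in A549-TIPARP. Its 2.74-fold difference (unadjusted p = 0.00159, adjusted p = 0.477, limma) was the only one in the list whose lines did not overlap. The matrix and cytoskeleton genes TAGLN (log2 fold change 0.47), ACTA2 (0.40) and TGFBI (0.22) overlapped between the lines, as did AXL (-0.26). SPARC, TNC, POSTN, LOX and FAP were listed at 0 in all 6 libraries.

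Of 15 other EMT transcription factors 10 were tested, 6 with a positive log2 fold change, TWIST1 and HMGA2 among them, and 4 with a negative one, and the median was 0.25 (0.15 without A549-GFP replicate 3 and -0.030 without A549-TIPARP replicate 2), and 0.042 when a TPM above 2 was required in at least 3 libraries. TWIST1, a basic helix-loop-helix factor, was listed at 0 in all 3 A549-GFP libraries and at 1.64, 2.06 and 1.80 TPM in A549-TIPARP. Its relative TWIST2 stood at 10.3, 12.2 and 11.8 TPM in A549-GFP and 13.5, 15.5 and 18.6 TPM in A549-TIPARP (log2 fold change 0.43). The A549-TIPARP libraries of TWIST2 all lay above those of A549-GFP, and TWIST1 was close to the lowest level that could be read and passed the filter through A549-TIPARP replicate 2 alone. HMGA2, a chromatin protein that acts upstream of SNAI1 and TWIST1, was listed at 0 in A549-GFP replicates 2 and 3, at 1.17 TPM in replicate 1, and at 1.80, 3.68 and 1.40 TPM in A549-TIPARP. FOXC2, a forkhead factor, had the opposite sign, at 3.67, 3.19 and 2.62 TPM in A549-GFP and 1.73, 2.26 and 2.18 TPM in A549-TIPARP (log2 fold change -0.44).

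Of 19 other epithelial genes 15 were tested, 8 with a positive and 7 with a negative log2 fold change, and the median was 0.03, with values of either sign from -0.083 to 0.11 when 1 library was left out. DSP, which encodes the desmosomal plaque protein desmoplakin, was at 69.2, 61.6 and 56.4 TPM in A549-GFP and 53.2, 49.3 and 41.7 TPM in A549-TIPARP (log2 fold change -0.37, unadjusted p = 0.0714, limma). MAP7, a microtubule-binding protein of epithelia, had a log2 fold change of -0.52 and EVPL, which encodes envoplakin, one of 0.25. The lines did not overlap for these 3 genes. Of 12 epithelial transcription factors 6 were tested, 5 with a negative log2 fold change, and the median was -0.22, between -0.41 without A549-GFP replicate 3 and -0.11 without A549-TIPARP replicate 2. KLF4 had the lowest value of them, -0.87, and stood at 11.0, 23.3 and 6.48 TPM in A549-GFP and 5.89, 5.75 and 6.75 TPM in A549-TIPARP. A549-GFP replicate 3 lay within the A549-TIPARP range.

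**Figure D4:**
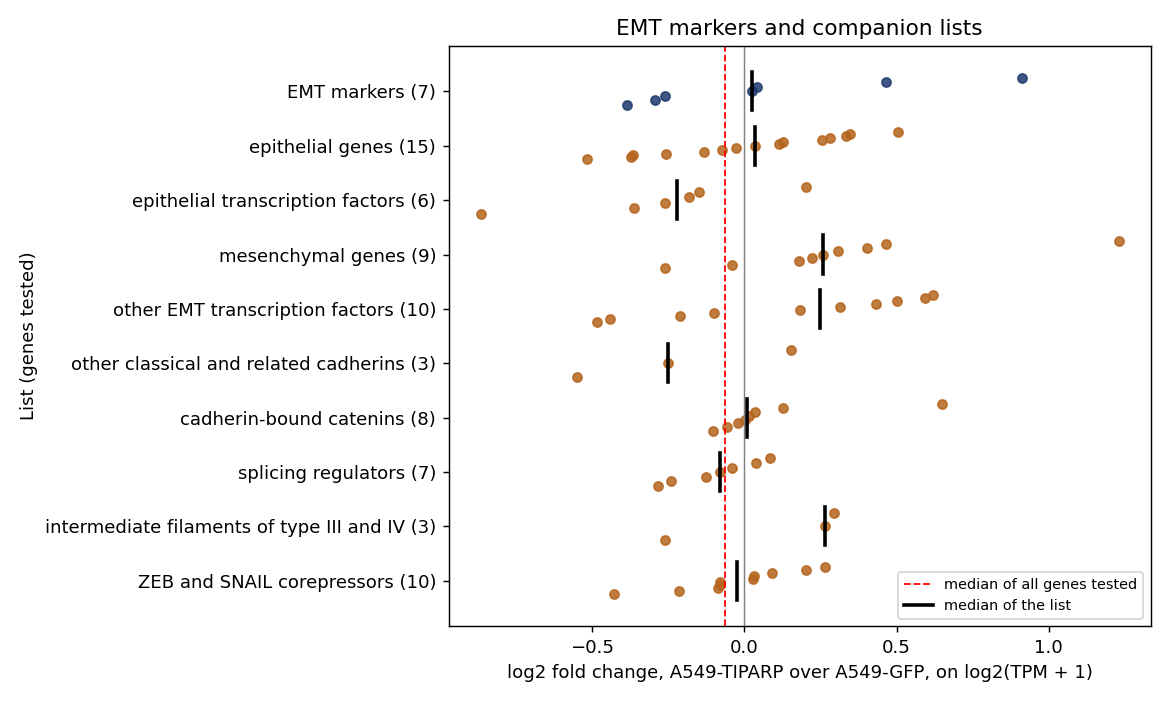
log2 fold change of A549-TIPARP over A549-GFP on log2(TPM + 1) for each tested gene of the EMT markers (blue) and of 9 companion lists (orange), with the number tested in brackets, a black bar for the list median and a dashed red line for the median of all genes tested (-0.06). With all 6 libraries the list medians run from -0.25 for the other cadherins to 0.27 for the intermediate filaments, each over 3 genes, and with 1 library left out these 2 medians run from -0.62 to 0.17 and from 0.11 to 0.22.

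The families of CDH1 and VIM were read next. Of 20 other cadherins 17 were listed at 0 in all libraries and 3 were tested, with a median log2 fold change of -0.25 that was -0.62 when A549-GFP replicate 1 was omitted, and 0.17 when A549-GFP replicate 2 was. CDH17, a cadherin of intestinal epithelium, was the highest of these at 30.2 to 116 TPM in A549-GFP and 26.6 to 40.7 TPM in A549-TIPARP. Of 10 catenins and other cadherin-bound proteins 8 were tested, ARVCF among them, with a median log2 fold change of 0.01, and beta-catenin (CTNNB1) lay at 93.6 to 122 TPM in A549-GFP and 98.4 to 117 TPM in A549-TIPARP. ARVCF, a p120-like catenin, was listed at 0 in A549-GFP replicate 1 and stood at 1.27 and 1.09 TPM in replicates 2 and 3. It stood at 2.59, 2.07 and 2.33 TPM in A549-TIPARP, and passed the filter through A549-TIPARP alone. The other intermediate filaments of VIM's type and of the neurofilament type were tested for 3 of 8 genes, PRPH, SYNM and NEFL, and none had separate lines. Their median log2 fold change of 0.27 was 0.11 to 0.22 when 1 library was left out.

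Regulators that act with the members followed. Of 8 splicing regulators 7 were tested and the median log2 fold change was -0.08 (-0.20 to 0.010 with 1 library left out). ESRP2, the paralog of ESRP1, stayed below 2 TPM in each library and was not tested, and PCBP1, an RNA-binding protein, had separate lines with a log2 fold change of -0.24. All 10 corepressors of ZEB and SNAIL were tested, and the median was -0.02 (-0.074 to 0.061 with 1 library left out). CTBP2, the C-terminal binding protein through which ZEB factors repress, stood at 52.0, 57.7 and 46.8 TPM in A549-GFP and 38.5, 41.9 and 35.1 TPM in A549-TIPARP. Every A549-TIPARP library was below every A549-GFP library (log2 fold change -0.43, unadjusted p = 0.0404, adjusted p = 0.994, limma). Its paralog CTBP1 had a log2 fold change of -0.09 with overlapping lines. The 6 entries read for the miR-200 family, which silences ZEB1 and ZEB2, were listed at 0 in every library. They were microRNA entries and the host gene MIR200CHG. Poly(A) libraries do not hold mature microRNAs, a limit that does not cover the host gene.

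KRT19, a keratin of simple epithelia, came from the marker list and had a larger log2 fold change than any member. It stood at 4.57, 2.54 and 5.36 TPM in A549-GFP and at 19.2, 19.0 and 10.9 TPM in A549-TIPARP. The lines did not overlap, and the log2 fold change was 1.75 with a standard error of 0.31 (adjusted p = 0.283, limma). It was named after its values were seen. The adjusted p was 0.00137, the least of 14 alternatives, with A549-GFP replicate 2 and A549-TIPARP replicate 3 left out, and 1 of the 14 was under 0.05. KRT19 did not represent its list, as the lines overlapped for every other gene of it. Their log2 fold changes were 0.28 for KRT8, 0.34 for KRT18, -0.03 for KRT7, 0.03 for CDH1 and -0.29 for EPCAM.

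The genes whose profiles over the 6 libraries were most like those of CDH1 and VIM were ranked by the root mean square difference of centred log2(TPM + 1) values. ANK3 (0.0596), SEMA3B (0.0650) and C1orf53 (0.0651) were nearest to CDH1, for which the median over all genes was 0.399. Each was highest in A549-GFP replicate 2, as CDH1 was. ANK3 was near the lowest level that could be read, at 1.38 to 4.19 TPM, where the pseudocount understates changes. ANXA6 (0.120), C10orf91 (0.156) and CCNG2 (0.156) were nearest to VIM, with a median over all genes of 0.704. ANXA6, a calcium-dependent membrane-binding annexin, stood at 18.9, 10.3 and 23.2 TPM in A549-GFP and at 29.2, 28.8 and 29.1 TPM in A549-TIPARP. These 6 libraries share lines and replicates, so the likeness is a description only.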

How the data were processed

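RNA-seq of A549-GFP and A549-TIPARP cells (3 libraries each, n = 3 per line) was analysed from the deposited values. The authors had TruSeq Stranded mRNA libraries sequenced as paired ends on an Illumina NovaSeq, used Strand NGS at its default settings to align them to hg38 transcripts, and deposited log2 TPM per gene, 1 table per library. The software version, the annotation release and the use of strand in counting are not given in the sources used here, so reads of VIM and VIM-AS1, or of ZEB1 and ZEB1-AS1, may not have been separated. The values above 0 summed to 998332 to 998442 TPM per library. The number of reads is not known, so no counting interval was given.

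Genes with a TPM above 2 in at least 1 library were kept (13181 entries). The lines were compared on log2(TPM + 1), a pseudocount of 1 that understates the change of low genes, with limma 3.58.1 (R 4.3.3) and a variance trend, without a replicate block, with Benjamini-Hochberg adjustment over all 13181. The script was tested on simulated data. SDs, folds between geometric means and 2-fold counts were taken from deposited log2 TPM. The members and lists were chosen with earlier results of these data known. All 10 members were named, with up to 4 genes per companion list whose lines did not overlap (largest fold change first), the 3 genes nearest in profile to CDH1 and to VIM, and TIPARP. Other list genes were named as examples after their values were seen. A planned CDH1 to CDH2 ratio was not given because CDH2 was listed at 0, and CDH1 to FN1 and VIM to KRT18 were added after seeing the data. Gene positions came from GENCODE on hg38. The alternatives were pseudocounts of 0.1 and none, a filter in at least 3 libraries, no filter, median-ratio rescaling, no variance trend, a replicate block, each library left out, and, chosen after seeing the data, A549-GFP replicate 2 and A549-TIPARP replicate 3 left out together. Every sample column was mapped to a sample.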

Additional observations from a re-analysis of the deposited data

How the results depend on the processing

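The number of genes called over the whole table (2) was 1 without a filter, 1 to 19 with each library left out (19 without A549-GFP replicate 2) and 98 with both A549-GFP replicate 2 and A549-TIPARP replicate 3 left out. The count more than 2-fold higher (202) was 228 to 383 with each library left out (383 without A549-GFP replicate 2), and the count more than 2-fold lower (57) was 37 after median-ratio rescaling and 39 to 200 with each library left out (200 when A549-GFP replicate 3 was omitted), and 38 with both libraries named above left out. No EMT marker had an adjusted p under 0.05 under any alternative run. VIM, FN1 and EPCAM kept their sign under each, while with each library left out the log2 fold change ran from -0.22 to 0.38 for CDH1, from -0.17 to 0.20 for ZEB1 (0.29 with both left out), from -0.80 to 0.084 for SNAI1 and from -0.70 to 0.010 for ESRP1. The median of the other EMT transcription factors (0.25) was 0.042 with the filter in at least 3 libraries and -0.030 to 0.30 with each library left out, and 0.33 with both, while that of the catenins (0.01) was -0.11 to 0.12 with each and 0.16 with both. The share of promoters with the E-box was 20.6% in the whole 300-base window. The causes were not tested. The labels number the experiments 1 to 3 in both lines. The correlation of deviations from the line means was 0.45, -0.52 and -0.38 for numbers 1, 2 and 3. With 3 libraries per line these correlations depend on one another, so they cannot decide whether the experiments were paired. A replicate block left 1 gene called. The unknown depth and the floor at a TPM of 1 limit most CDH2, ZEB2 and SNAI2, which were listed at 0 throughout and not tested. Among the genes tested they limit ESRP1, ZEB1, TWIST1, HMGA2 and ARVCF most.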
